A study of Mus musculus with 4 samples.

Results

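The genes described here are 41 genes of mitosis and chromosome segregation, chosen by name for their roles in cell division. No measured value entered the rule, but the choice was made with earlier results of these data known. All 41 were on the array, out of 22911 genes that could be named there, and 67 probes measured them. RAW264.7, a mouse macrophage-like line that was transformed by a leukaemia virus and divides continuously in culture, was transfected with a control siRNA or with a SMARTpool of siRNAs against Ruvbl2, spelled siRvbl2 in the sample titles, and was analysed 2 days later. The 4 groups were control siRNA with DMSO, control siRNA with LPS (lipopolysaccharide, a bacterial wall component that activates macrophages), Ruvbl2 siRNA with DMSO and Ruvbl2 siRNA with LPS. Each group was 1 array of 1 culture of the same line, so no group has a replicate, and no single comparison of groups, nor the change of the LPS difference by the siRNA, could be tested. An additive fit of siRNA and treatment over the 4 arrays, which would leave 1 residual degree of freedom, was not run. Precision is limited by there being so few arrays. The labels name electroporation or a lipid reagent for the transfection without saying which was used here, and for LPS neither the dose nor how long it was given is stated in those labels. The series asks how RUVBL2, an ATPase of chromatin remodelling and chaperone complexes, bears on LPS-induced inflammatory genes. The mitotic genes show how the division programme stood on the same arrays.

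Cells enter mitosis when cyclin B activates the kinase CDK1, and mitotic kinases then build the spindle and condense the chromosomes. The spindle checkpoint holds the cell until every kinetochore is attached, after which the ubiquitin ligase APC/C with CDC20 destroys securin and cyclin B, separase opens cohesin, and the cell divides. Transcripts of most of these genes are made late in the cell cycle under the MuvB complex with B-MYB and FOXM1, which act through CHR elements and CCAAT boxes near the start site, so that their abundance in a culture follows the share of cells in G2 and mitosis. Activated macrophages commonly slow their division. In RNA from a whole culture, fewer dividing cells and less RNA per dividing cell cannot be told apart.

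The promoters of the members are given first, since shared elements are what these genes are known for. RefSeq windows running from 250 bases before to 50 bases after a start site (GRCm38.p6) were matched by symbol for 34 of the 41 members, with 36 windows in all. The sequence CCAAT, searched on both strands, was in 29 of these windows (80.6%) and in 37.4% of all 32851 windows. The CHR form TTTGAA, searched the same way, was in 27 member windows (75%) and in 17.9% of all windows. The variant form TTCGAA, which reads the same on both strands, was in 3 (8.33%) and in 1.56%. CCAAT was found together with the form TTTGAA in 25 member windows (69.4%), against 6.95% of all windows. No motif contains another, and a match describes the letters only. The sequences printed are the stretches before the start site, outside every annotated transcript of the gene, for the 3 members that were lowest with LPS under control siRNA (Ccnb1, Espl1 and Kif11) and the 3 whose LPS difference was furthest above that of control siRNA when Ruvbl2 siRNA was used (Cenpf, Cenpe and Mki67). Each runs 5′ to 3′ along the gene's strand, and capitals mark the CCAAT box and the first CHR form, or their reverse complements.
Ccnb1: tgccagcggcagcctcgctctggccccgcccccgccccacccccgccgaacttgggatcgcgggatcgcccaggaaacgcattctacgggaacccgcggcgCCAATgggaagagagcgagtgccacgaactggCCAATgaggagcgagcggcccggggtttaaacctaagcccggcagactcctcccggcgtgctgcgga
Espl1: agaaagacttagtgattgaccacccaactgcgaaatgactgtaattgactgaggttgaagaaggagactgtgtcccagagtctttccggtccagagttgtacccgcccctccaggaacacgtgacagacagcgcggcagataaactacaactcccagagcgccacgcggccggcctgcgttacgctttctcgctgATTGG
Kif11: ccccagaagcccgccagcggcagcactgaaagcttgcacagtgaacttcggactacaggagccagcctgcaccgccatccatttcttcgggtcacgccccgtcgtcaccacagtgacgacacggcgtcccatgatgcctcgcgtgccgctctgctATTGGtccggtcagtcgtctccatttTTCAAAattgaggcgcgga
Cenpf: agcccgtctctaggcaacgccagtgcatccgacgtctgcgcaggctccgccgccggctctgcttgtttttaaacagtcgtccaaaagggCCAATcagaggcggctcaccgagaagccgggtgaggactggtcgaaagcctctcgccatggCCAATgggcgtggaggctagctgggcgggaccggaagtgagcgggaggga
Cenpe: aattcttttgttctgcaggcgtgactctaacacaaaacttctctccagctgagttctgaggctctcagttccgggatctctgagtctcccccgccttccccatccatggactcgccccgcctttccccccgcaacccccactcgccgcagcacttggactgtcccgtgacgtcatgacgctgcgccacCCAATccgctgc
Mki67: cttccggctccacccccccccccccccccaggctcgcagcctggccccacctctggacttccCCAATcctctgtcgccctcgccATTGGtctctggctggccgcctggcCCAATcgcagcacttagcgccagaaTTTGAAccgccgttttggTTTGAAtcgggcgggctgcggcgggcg
The stretches lie at chr13:100786487-100786686, minus strand for Ccnb1, chr15:102296054-102296253, plus strand for Espl1, chr19:37376182-37376381, plus strand for Kif11, chr1:189688108-189688307, minus strand for Cenpf, chr3:135212363-135212562, plus strand for Cenpe and chr7:135716451-135716629, minus strand for Mki67. Kif11 and Mki67 carried both kinds of element in the printed stretch. In Espl1 the TTTGAA match began 27 bases before the start site, and in Cenpf 3 bases after it, both beyond the printed part. Ccnb1 and Cenpe had CCAAT and no match to the first CHR form in the window, so the 6 genes with the largest differences did not share all the letters searched.

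Some facts of the arrays touch every value below. Levels are log2 of the processed signal after the 75th percentile of that array was subtracted, so that 0 is the 75th percentile of all RNA probes. A difference of 1 in level is 2-fold and one of 0.5 is 1.41-fold. All 10 macrophage markers, among them Csf1r, Adgre1 and Spi1, exceeded background clearly on each of the 4 arrays, and so did 3 of the 5 T cell markers on the array (Cd3d, Cd3e and Cd4), 1 of 5 B cell markers (Pax5), 1 of 6 fibroblast markers (Col1a2), 0 of 6 epithelial markers and 0 of 5 mast cell markers. The mast cell protease gene Cma1 was above background on the Ruvbl2 siRNA DMSO array alone. The summed level of the macrophage markers ran from 9.97 to 10.21 with control siRNA and from 10.15 to 10.28 with Ruvbl2 siRNA. That of the T cell markers ran from 1.74 to 1.89 and from 1.72 to 1.99, and their part in the differences below was not tested. Ruvbl2 itself, by its brighter probe, stood at 79.2% of control in DMSO and at 75.7% in LPS, a small difference for a targeted gene. Its dimmer probe gave 68.5% in DMSO and 92.2% in LPS, the latter a difference of -0.12 that is within that probe's technical SD of 0.27. All arrays shared 1 slide, with the control siRNA pair in row 1 and the Ruvbl2 siRNA pair in row 2, so the row and the siRNA cannot be told apart. The Ruvbl2 siRNA DMSO array stood apart in its spike-ins, which are control RNAs of set amount, with a median level of 3.95 against 3.57 to 3.64 on the other arrays. Its 75th percentile was also the lowest, at a signal of 331 against 395 to 456. Values that rest on that array are named as such, and those that do not are the LPS difference with control siRNA and the siRNA difference in LPS.

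Each of the 41 members was well above background on every array and passed the filter on dim probes in every group, so no member entered a comparison through its bright group alone. Their median level was 4.31 with control siRNA and DMSO, 4.0 with control siRNA and LPS, 4.08 with Ruvbl2 siRNA and DMSO, and 4.17 with Ruvbl2 siRNA and LPS. The lowest level was that of Kif11, the spindle motor that pushes the poles apart, and the highest was that of Birc5 (survivin), although brightness also depends on the probe. For 27 of the 41 members the lowest of the 4 arrays was control siRNA with LPS, for 12 it was Ruvbl2 siRNA with DMSO, and for 1 each it was one of the other arrays. The highest array was Ruvbl2 siRNA with DMSO for 15 members, control siRNA with DMSO for 13, Ruvbl2 siRNA with LPS for 9 and control siRNA with LPS for 4. The lowest and highest arrays were not counted over all genes. Over the 4 arrays a member spanned between 0.027 (Hmmr, a spindle-associated hyaluronan receptor) and 1.03 (Ccnb1) in level. Probes of these levels that were printed 10 times on the array gave a technical SD of a difference of 0.072 above a level of 4, 0.083 from 2 to 4 and 0.14 from 0 to 2. The last pair of values rests on 9 and 12 probe measurements, and none of them covers variation between cultures.

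**Figure D1:**
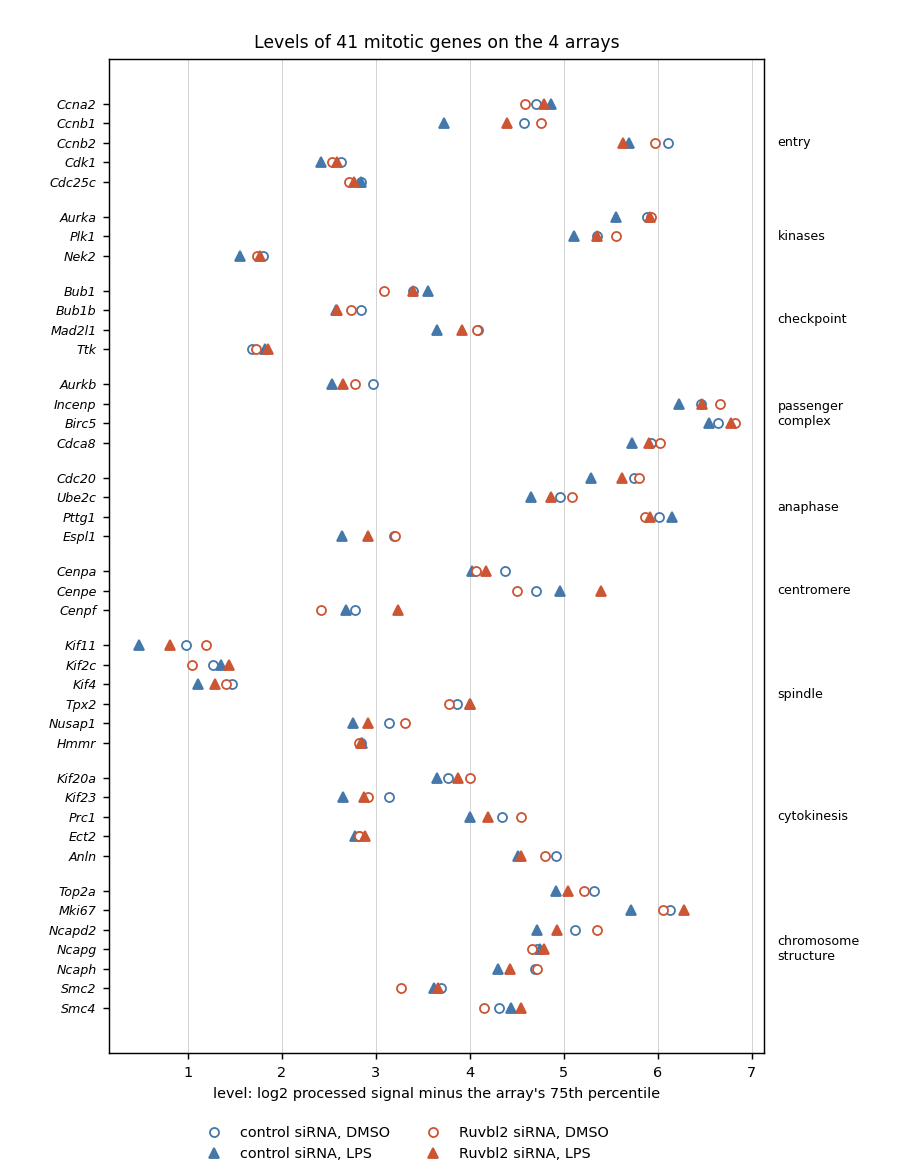
Level of each of the 41 mitotic genes (rows, grouped by role) on the 4 arrays, as log2 of the processed signal relative to the 75th percentile of the array; blue marks are control siRNA, orange marks Ruvbl2 siRNA, open circles DMSO and filled triangles LPS, with 1 array each and no error bars. The blue triangle, control siRNA with LPS, is the lowest mark for 27 of the 41 genes, while Cenpe, Cenpf and Mki67 have their highest mark at the orange triangle.

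With control siRNA, most mitotic genes read lower after LPS than after DMSO, by small amounts. Of the 41 members 31 lay below 0, against 50% of the 13512 genes compared, and the median of the members was -0.24, against -0.00015 for all genes. None of the members reached 2-fold in either direction, where 5.74% of all genes were higher and 2.21% lower by that rule. By the smaller rule of 0.5, 2 members were lower, against 10.7% of all genes, and 0 were higher, against 14.6%. Most members thus lay on one side of 0, by small amounts. Among the 8658 genes with a mean level of 0 or more, which is the brightness range of the members, 49.7% were below 0. By the smaller rule 9.01% of those 8658 genes were lower and 10.4% higher. With the arrays centred on the spike-ins 29 members lay below 0, and 31 lay below the median of all genes by either centring.

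Ccnb1, the cyclin whose binding activates CDK1 at mitotic entry, read 4.57 with DMSO and 3.73 with LPS, which is 1.80-fold lower. This was the largest difference among the members, and it rested on the brightest of its 3 probes, A_55_P2065671. The other 2 Ccnb1 probes, A_55_P1952256 and A_55_P2128668, read 0.50 and 0.27 higher with LPS, so the mean over the gene's probes differed by only -0.027. Ccnb1 therefore has no settled direction in these data. Ccna2, the cyclin of S phase and G2, was split the same way: its chosen probe differed by 0.16 and its other probe, of almost the same level with DMSO (4.70 and 4.71), by -0.72. The remaining entry genes had 1 probe each. Ccnb2, the second mitotic B-type cyclin, went from 6.10 to 5.69 and Cdk1 from 2.63 to 2.42, whereas Cdc25c, the phosphatase that removes the brake on CDK1, stood at 2.85 on both arrays.

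Aurka, Plk1 and Nek2, the passenger complex and the cytokinesis genes all lay below 0 with control siRNA. Aurka, which matures the spindle poles, read 5.88 with DMSO and 5.56 with LPS, Plk1, a master kinase of mitotic progression, 5.36 and 5.11, and Nek2, which splits the centrosomes, 1.80 and 1.56. All 4 genes of the chromosomal passenger complex, which corrects faulty spindle attachments, were below 0, with a median of -0.22. Their differences were -0.43 for the kinase Aurkb, -0.24 for Incenp, -0.20 for Cdca8 (borealin) and -0.099 for Birc5. All 5 genes of the central spindle and cytokinesis were below 0 as well, with a median of -0.35. Among them Kif23, the motor of the centralspindlin complex, differed by -0.49, the ring scaffold Anln by -0.41 and Prc1, which bundles midzone microtubules, by -0.35. Ect2, the exchange factor that turns on RhoA at the equator, differed by only -0.042, which is within the technical SD.

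Genes of anaphase and of chromosome structure were lower with LPS under control siRNA in most cases. Espl1, the gene of separase, read 3.20 with DMSO and 2.64 with LPS, 1.47-fold lower, and it has 1 probe. Cdc20, the activator of the APC/C, differed by -0.46 and Ube2c, the ubiquitin-conjugating enzyme of the APC/C, by -0.31. Pttg1, the gene of securin, lay on the other side at 0.14. Of the 7 chromosome structure genes 5 were below 0, with a median of -0.40. Mki67, the proliferation antigen that coats mitotic chromosomes, differed by -0.41, Top2a, the topoisomerase that untangles sister chromatids, by -0.40, and the condensin subunits Ncapd2 and Ncaph by -0.40 each. The other condensin I and core subunits were close to 0, with Ncapg at 0.031, Smc2 at -0.074 and Smc4 at 0.12, so the condensin genes did not lie together.

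The spindle checkpoint, centromere and spindle groups were mixed with control siRNA. In the checkpoint, Mad2l1, which inhibits CDC20, differed by -0.43 and Bub1b by -0.27, while the kinases Bub1 and Ttk differed by 0.15 each. Among the centromere genes, Cenpa, the centromeric histone, differed by -0.36 and Cenpf by -0.097, and Cenpe, a kinetochore motor, was the highest of all members at 0.26. Among the spindle genes, Kif11 read 0.98 and 0.48, or 1.41-fold lower, a difference of -0.497 that just missed the smaller rule. Nusap1, a microtubule bundler, differed by -0.39 and Kif4, a chromosome-bound motor, by -0.36, while Tpx2, which activates Aurora A, Kif2c, a microtubule depolymerase, and Hmmr lay above 0 at 0.14, 0.092 and 0.007.

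With Ruvbl2 siRNA the mitotic genes showed no common direction after LPS. Of the 41 members 23 lay below 0, against 53.2% of the 13517 genes compared, and 18 above 0, against 46.8%, with a median of -0.049, against -0.030 for all genes. By the smaller rule 2 members were higher, against 11.1% of all genes, and 0 lower, against 10.8%, and none reached 2-fold, where 4.14% of all genes were higher and 2.07% lower. Of the genes with a mean level of 0 or more, 7.3% were higher and 7.88% lower by the smaller rule. This comparison rests on the Ruvbl2 siRNA DMSO array. With spike-in centring the median of all genes moved to 0.34, 37 members lay above 0 and 2 passed 2-fold, while the distance between the members' median and that of all genes stayed at -0.023.

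Cenpe and Cenpf were the members past the smaller rule with Ruvbl2 siRNA. Cenpe read 4.51 with DMSO and 5.40 with LPS, 1.86-fold higher. Cenpf, a large protein of the kinetochore and the nuclear matrix, read 2.41 and 3.23, or 1.77-fold higher, and its other probe differed by 0.35 in the same direction. With the mean of both Cenpf probes the difference was 0.59, and with spike-in centring it was 1.19, and that of Cenpe 1.26. Smc2 and Smc4, the ATPases at the core of condensin, differed by 0.39 and 0.38, and Kif2c by 0.38. At the lower end stood Ncapd2 at -0.43, Nusap1 at -0.40, Kif11 at -0.38 and Ccnb1 at -0.37. With spike-in centring only 4 members lay below 0.

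**Figure D2:**
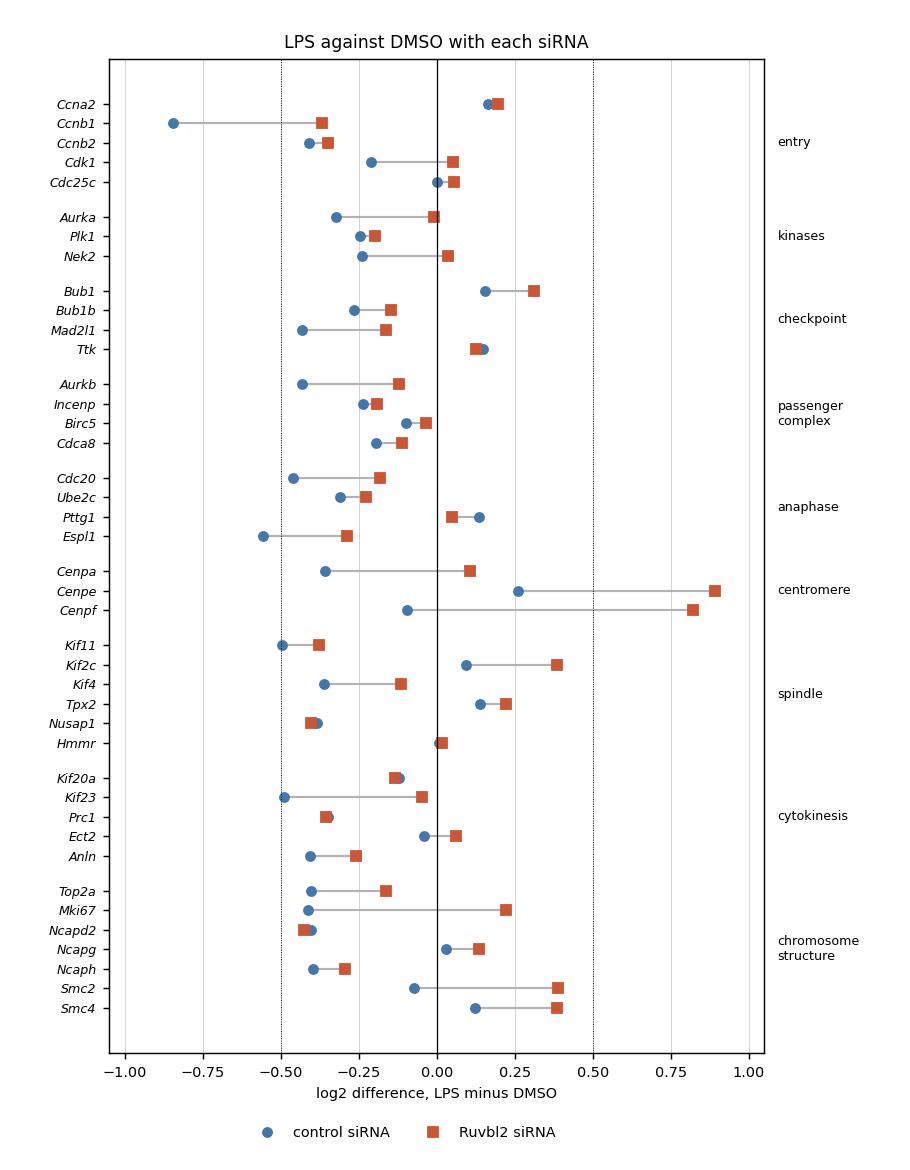
Log2 difference of LPS minus DMSO for each of the 41 mitotic genes, with control siRNA (blue circles) and Ruvbl2 siRNA (orange squares), joined by a grey line; dotted lines mark 0.5 and -0.5, and each point is 1 array against 1 array. The circles lie below 0 for 31 genes, and the longest grey lines, at Cenpf, Cenpe and Mki67, run to the right.

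The LPS differences with each siRNA come from separate pairs of arrays. Of the 41 members 23 were below 0 with both siRNAs, 10 above 0 with both, 8 below 0 with control siRNA and above 0 with Ruvbl2 siRNA, and 0 the other way round. The same split was not counted over all genes, so it describes the members only. The change of the LPS difference (Ruvbl2 siRNA minus control siRNA) was above 0 for 35 of 41 members, against 45% of the 12471 genes that were well above background on every array, and below 0 for 6, against 55%. Its median was 0.12 over the members and -0.034 over all genes, and 40 of the 41 members lay above the median of all genes. Centring on detected probes or on the spike-ins shifts all genes of an array alike, so it could not alter that count. It was also 40 with quantile normalization, and 39 with normexp correction or with the mean of a gene's probes. With the 75th percentile the exception was Pttg1 at -0.086 by its brighter probe, while its other probe gave 0.49. By the smaller rule 3 members were higher (Cenpf, Cenpe and Mki67), against 4.42% of all genes, and 0 were lower, against 7.2%. Of the genes with a mean level of 0 or more, 2.38% were higher and 3.92% lower by that rule. No member reached 2-fold, where 0.513% of all genes were higher and 1.18% lower, although Cenpf passed it with spike-in centring. All 4 arrays enter this value, the Ruvbl2 siRNA DMSO array among them.

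Cenpf had the largest value, 0.92, and its 4 levels were 2.78 and 2.68 with control siRNA (DMSO, LPS) against 2.41 and 3.23 with Ruvbl2 siRNA. The Ruvbl2 siRNA arrays thus held both its lowest and its highest level, with the control arrays between them. Its other probe gave 0.57. For Cenpe the value was 0.63, from levels of 4.70 and 4.96 with control siRNA and 4.51 and 5.40 with Ruvbl2 siRNA. Its highest and lowest levels were also on the Ruvbl2 siRNA arrays. Mki67 had the same value, 0.63, but its levels of 6.13 and 5.72 with control siRNA and 6.05 and 6.27 with Ruvbl2 siRNA set apart only the control siRNA LPS array, as the lowest. Ccnb1 was at 0.48 by its brightest probe and at -0.070 and 0.27 by the others. Next came Cenpa at 0.465, Smc2 at 0.46 and Kif23 at 0.44. At the lower end, after Pttg1, stood Ncapd2 (-0.023), Ttk (-0.021), Nusap1 (-0.017) and Kif20a, a motor of cytokinesis (-0.014), all within the technical SD.

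In DMSO, the siRNAs differed little in the mitotic genes. With Ruvbl2 siRNA 25 of the 41 members were below 0, against 42.4% of the 13418 genes compared, and 16 above 0, against 57.6%, and the median was -0.060, against 0.042 for all genes. None of the members passed the smaller rule, where 5.09% of all genes were higher and 3.54% lower, and none was 2-fold higher or lower (1.01% and 0.537%). Among the 8658 genes with a mean level of 0 or more, only 1.52% were higher and 1.5% lower by the smaller rule. The lowest members were Smc2, at 3.69 with control siRNA and 3.27 with Ruvbl2 siRNA (-0.42), Cenpf (-0.37), Cenpa (-0.32) and Bub1 (-0.31). The highest were Ncapd2, at 5.12 and 5.35 (0.24), Kif20a (0.23) and Kif11 (0.21). The signs in this comparison hang on the Ruvbl2 siRNA DMSO array: with spike-in centring all 41 members lay below 0, and the median of all genes moved to -0.26. Relative to the median of all genes, 27 members were lower, a count that centring cannot alter. It was also 27 with normexp correction, and 29 with quantile normalization or with the mean of a gene's probes.

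In LPS, the mitotic genes read higher with Ruvbl2 siRNA than with control siRNA. Of the 41 members 35 were above 0, against 50.8% of the 13472 genes compared and 53.7% of the 8658 genes with a mean level of 0 or more, and 6 were below 0, against 49.2%. The median was 0.16, against 0.0049 for all genes. The sizes stayed small: 3 members were higher by the smaller rule (Ccnb1, Mki67 and Cenpf), against 5.41% of all genes, 0 were lower, against 6.94%, and none was 2-fold higher or lower (1.06% and 1.46%). Of the genes with a mean level of 0 or more, 2.73% were higher and 3.49% lower by the smaller rule. This comparison does not use the Ruvbl2 siRNA DMSO array, and with spike-in centring 34 members were above 0, against 49.9% of all genes.

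Mki67 read 5.72 with control siRNA and 6.27 with Ruvbl2 siRNA in LPS, 1.47-fold higher, by its only probe. Cenpf read 2.68 and 3.23, also 1.47-fold higher, with 0.44 by its other probe, and Cenpe 4.96 and 5.40 (0.44). Ccnb1 read 3.73 and 4.39, or 1.58-fold higher, by its brightest probe, but -0.045 and -0.030 by the other 2, which leaves its direction unsettled here as well. Aurka was higher by 0.36, Plk1 by 0.24 and Nek2 by 0.22. All 4 passenger complex genes were above 0, from 0.12 (Aurkb) to 0.24 (Birc5, the survivin subunit, and Incenp, the scaffold), and so were all 5 cytokinesis genes and all 7 chromosome structure genes, with medians of 0.19 and 0.12. Of these, Anln (0.025), Smc2 (0.043) and Ncapg (0.047) lay within the technical SD. Of the anaphase genes, Cdc20 differed by 0.33, Espl1 by 0.28 and Ube2c by 0.21. The 6 members below 0 were Pttg1 (-0.23), Bub1 (-0.16), Ccna2 (-0.081, with its other probe at 0.29), Cdc25c (-0.077), Ccnb2 (-0.068) and Hmmr (-0.010). Pttg1 was thus higher with LPS under control siRNA and lower with Ruvbl2 siRNA under LPS, the reverse of most members, though its dim second probe gave 0.047 for the latter.

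**Figure D3:**
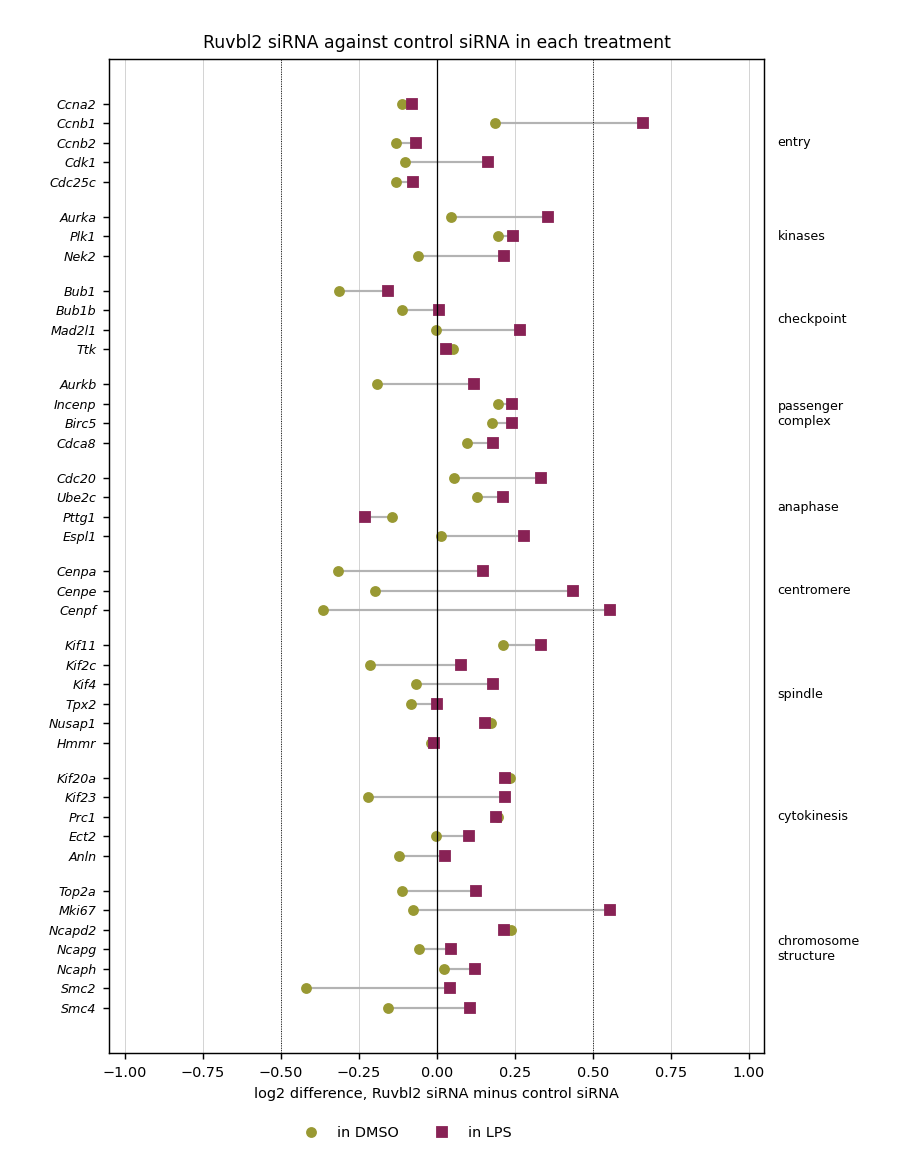
Log2 difference of Ruvbl2 siRNA minus control siRNA for each of the 41 mitotic genes, in DMSO (olive circles) and in LPS (purple squares), joined by a grey line; dotted lines mark 0.5 and -0.5, and each point is 1 array against 1 array. The squares lie above 0 for 35 genes and the circles for 16, and the widest gap is at Cenpf.

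The siRNA differences in DMSO and in LPS also come from separate pairs of arrays. Of the 41 members 16 were above 0 in both treatments, 6 below 0 in both, 19 below 0 in DMSO and above 0 in LPS, and 0 the other way round. This split was not counted over all genes either. The LPS difference with control siRNA and the siRNA difference in LPS share the control siRNA LPS array, on which 27 members were lowest, so their opposite signs are not separate observations. For Cdc20, for example, the 2 values were -0.46 and 0.33, and for Aurka -0.32 and 0.36.

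Of the 41 members 21 had more than 1 probe, and their 26 further probes, all well above background on every array, give another reading of the same RNA. For LPS with control siRNA 18 of the 26 had the sign of the chosen probe, 19 were below 0, and their median was -0.18. For LPS with Ruvbl2 siRNA 17 had the same sign, but 16 were above 0 and 10 below, with a median of 0.062, on the other side of 0 from the members' median of -0.049. For the siRNA difference in LPS 17 had the same sign, 19 were above 0, and the median was 0.11. For the change of the LPS difference 19 had the same sign and 21 were above 0, with a median of 0.22. The median gap to the chosen probe was 0.12 for LPS with control siRNA, where the technical SD of a gap between differences is 0.10 above a level of 4, 0.12 from 2 to 4 and 0.20 from 0 to 2. The largest gap, 1.34, was in Ccnb1. In DMSO only 13 of the 26 had the sign of the chosen probe, which leaves the signs of single members there unsettled.

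**Figure D4:**
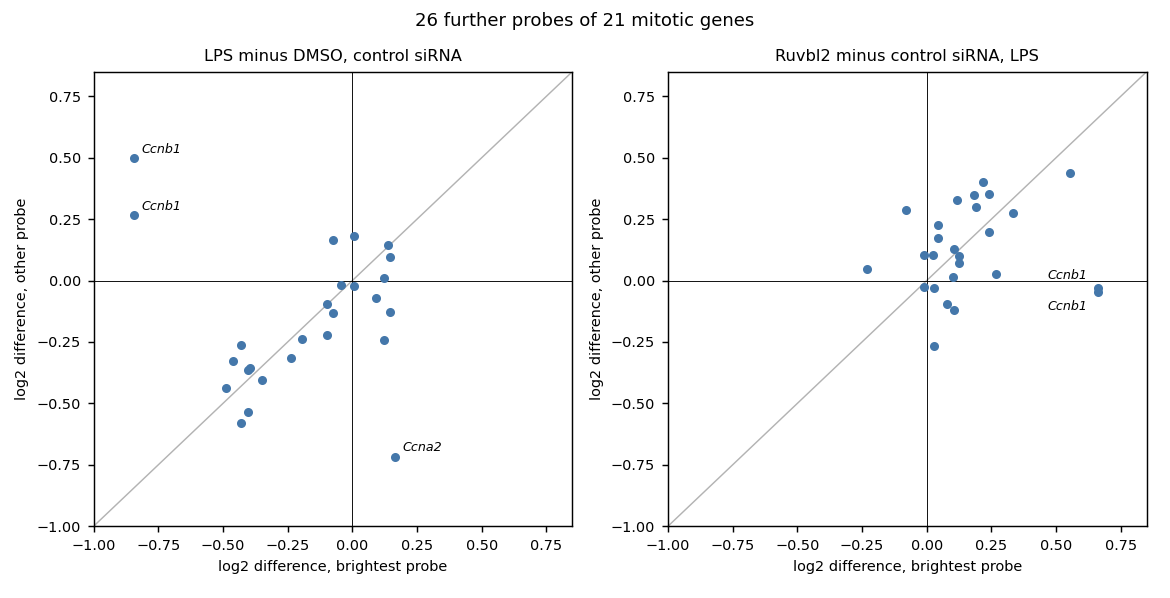
Log2 difference by each of the 26 further probes (vertical axis) against that of the brightest probe of the same gene (horizontal axis) for 21 mitotic genes, for LPS minus DMSO with control siRNA (left) and Ruvbl2 minus control siRNA in LPS (right); the grey line marks equal values. Most points lie near the line, and the labelled points, Ccnb1 and Ccna2, have probes that differ by more than 0.5.

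The wider mitotic pathway was read from 127 further genes in 5 lists. With control siRNA 80 of them were below 0 with LPS, against 50% of all genes, with a median of -0.12. By the smaller rule 5 were higher, against 14.6% of all genes, and 8 lower, against 10.7%. In LPS 89 were above 0 with Ruvbl2 siRNA, against 50.8% of all genes, with a median of 0.075. By that rule 1 was higher (Ska2, a dim microtubule-binding gene, at 0.62), against 5.41% of all genes, and 1 lower (Mastl, the Greatwall kinase, at -0.52), against 6.94%. Entry regulators had medians of -0.26 for LPS with control siRNA and 0.18 for the siRNA difference in LPS. Among them Ccnf, a cyclin that serves as a ubiquitin ligase subunit, read 5.09 with DMSO and 4.51 with LPS under control siRNA, and 5.01 with LPS under Ruvbl2 siRNA. Spindle and motor genes had a median of -0.28 for LPS with control siRNA, led by Cit, a kinase of the midbody, at -1.01, and Fam83d, a spindle protein, at -0.72, while Plk4, the kinase of centriole duplication, was at 0.64.

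Kinetochore genes had a median of -0.10 for LPS with control siRNA. By the smaller rule 0 of 38 passed, where 14.6% of all genes were higher and 10.7% lower. Knl1, the large scaffold that recruits the checkpoint proteins, had a change of the LPS difference of 0.61: its levels were 2.79 and 2.61 with control siRNA and 2.62 and 3.05 with Ruvbl2 siRNA. Among the spindle and motor genes that value was 0.77 for Cit, 0.56 for Kif20b, a motor of the midbody, and -0.53 for Cep55. Over the 127 genes 4 were higher by the smaller rule, against 4.42% of all genes. By that rule 3 were lower, against 7.2%. Cohesin and condensin genes had medians of -0.12 for LPS with control siRNA and 0.16 for the siRNA difference in LPS. In the latter 14 of 18 were above 0, against 50.8% of all genes. Genes of the APC/C and mitotic exit did not share the members' direction for LPS with control siRNA. Their median was 0.081, and 13 of 22 were above 0, near the 50% of all genes. Among them Ube2s, which extends the ubiquitin chains of the APC/C, had levels of 5.90 and 6.58 with control siRNA and 6.74 and 6.09 with Ruvbl2 siRNA, so that its change of the LPS difference was -1.33. Most subunits of the APC/C are present throughout the cell cycle, unlike the members, and whether that bears on these values was not tested.

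Of 23 genes of the factors that transcribe mitotic genes, 15 were below 0 with LPS under control siRNA, against 50% of all genes. Their median was -0.23. By the smaller rule 7 were lower, against 10.7% of all genes, and 1 was higher, against 14.6%. Foxm1, a direct activator of mitotic genes, read 3.80 with DMSO and 3.36 with LPS under control siRNA, and 3.87 and 3.66 with Ruvbl2 siRNA. Mybl2, the gene of B-MYB, read 5.70 and 5.64, then 5.82 and 5.92, a much smaller difference. E2f7, a repressor of the E2F family, was at -0.92 and Nfyb, a subunit of the CCAAT-binding factor NF-Y, at -0.72. In LPS 15 of the 23 were above 0 with Ruvbl2 siRNA, against 50.8% of all genes, with a median of 0.10. There Tfdp2 differed by 0.55, Nfyb by 0.53, Foxm1 by 0.30 and Mybl2 by 0.28. The other 8 were below 0, the lowest being Rb1 at -0.38, Lin54 at -0.32 and E2f5 at -0.29. E2f4, a dim gene at -2.38 with control siRNA and DMSO, differed between the siRNAs by -1.17 in DMSO. Its change of the LPS difference was 1.06, and both values rest on the Ruvbl2 siRNA DMSO array.

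DNA replication genes, which peak earlier in the cell cycle, did not share the lower values with LPS under control siRNA. Of 50 such genes 24 were below 0, near the 50% of all genes, with a median of 0.024. The mitotic genes had 31 of 41 below 0 and a median of -0.24, and the difference between the lists was not tested. With Ruvbl2 siRNA after LPS 35 of 50 replication genes were above 0, against 46.8% of all genes, with a median of 0.11. In LPS 36 of 50 were above 0 with Ruvbl2 siRNA, against 50.8%, with a median of 0.079. None of the 50 passed the smaller rule between the siRNAs in either treatment, where the shares of all genes are those given above. Among 14 cell cycle arrest genes 11 could be compared, and they went both ways with LPS. With control siRNA 6 were above 0 and 5 below (median 0.32), near the 50% of all genes above 0. With Ruvbl2 siRNA 7 were above and 4 below (median 0.078), where 46.8% of all genes were above 0. Cdkn1a, the p21 inhibitor of cyclin-dependent kinases, read 4.67 and 5.01 with control siRNA and 4.80 and 5.25 with Ruvbl2 siRNA, so it was higher with LPS by 0.34 and 0.45. Gadd45a, a stress gene that can inhibit CDK1, was higher with LPS by 2.57 with control siRNA and by 0.86 with Ruvbl2 siRNA. It was dim, at -3.35 with control siRNA and DMSO. Gadd45b was higher with LPS by 1.43 and 1.40. On the other side, Cdkn2c, an inhibitor of CDK4 and CDK6, differed by -0.32 and -0.69, and Cdkn1b, the p27 inhibitor, by -0.11 and -0.43. Between the siRNAs 8 of the 11 were above 0 and 3 below in DMSO, against 57.6% of all genes above 0. In LPS 6 were above 0 and 5 below, near the 50.8% of all genes above 0. The lowest was Ccng2, at -1.04 in DMSO and -1.71 in LPS.

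**Figure D5:**
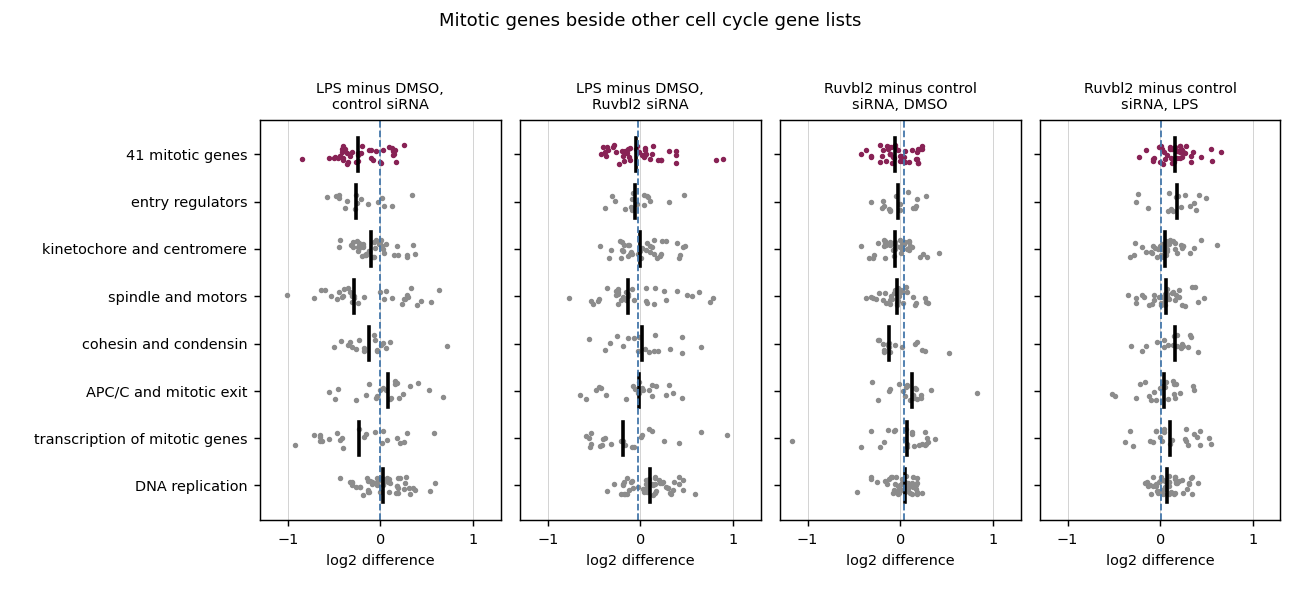
Log2 differences of the 41 mitotic genes (purple) and of 7 other cell cycle lists (grey) in the 4 comparisons; each point is a gene, the black bar is the median of the list and the dashed blue line the median of all genes compared. In the left panel the bar of the mitotic genes is at -0.24 and that of the DNA replication genes at 0.024, and in the right panel the bars are at 0.16 and 0.079.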

How the data were processed

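RNA of 4 RAW264.7 cultures was hybridized in 1 colour (Cy3) to an Agilent mouse array, 1 array per group, all on 1 slide. Per the file headers the software was Feature Extraction 11.5.1.1; the submitters' processing notes give 11.0. What the authors deposited is a linear intensity for each spot, the processed signal, with no normalization from array to array. For each of the 4 arrays, their value table equalled this processed signal. Spots marked as population outliers were left out, spots of a probe were averaged as log2, and each array's 75th percentile over 56605 RNA probes was subtracted. Symbols came from the RefSeq accession of a probe (32994 probes named), and the brightest probe stood for a gene. Differences were compared where a gene was well above background. Where only the brighter array was, the dim array was set to its floor and the value was a bound. No p-value was computed. The comparison code was tested on simulated data. The genes described in full are those reaching 0.5 in a comparison and, where fewer than 6 did, the 3 largest per direction, and up to 2 per direction of each other list. Other genes named beside them, such as Foxm1, Mybl2 and Cdkn1a, were chosen after their values were seen, for their known roles. The members and lists were chosen with earlier results of these data known. Python 3.11.15, pandas 2.3.3 and limma 3.58.1 were used, the last for normexp correction (offset 50), run on the median spot signal.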

Additional observations from a re-analysis of the deposited data

Results flagged for a closer look

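Mki67 read lower with LPS under control siRNA (-0.41) and higher with LPS under Ruvbl2 siRNA (0.22), a gap of 0.63. Each value was larger than 2 technical SDs, which cover spots within an array only. For 4 members the siRNA difference was below 0 in DMSO and above 0 in LPS by the same measure: Cenpf (-0.37 and 0.55, a gap of 0.92), Cenpe (-0.20 and 0.44, a gap of 0.63), Cenpa (-0.32 and 0.15, a gap of 0.465) and Kif23 (-0.22 and 0.22, a gap of 0.44). These differences between conditions were not tested, since each rests on 4 arrays without replicates. All 5 rest on the Ruvbl2 siRNA DMSO array. Their opposite signs were kept under every alternative run, although the deposited value table and the filters on dim probes could not alter them. With spike-in centring all 41 members lay below 0 in DMSO, so that sign was not particular to the 4. With the mean of its probes, Kif23 in DMSO was at only -0.037. The second Kif23 probe read 0.15 in DMSO and 0.40 in LPS, so the Kif23 pattern was seen with its brighter probe only, while the second Cenpf probe gave -0.13 and 0.44.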

How the results depend on the processing

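The median of the 41 members kept its direction in all 5 comparisons under normexp correction, quantile normalization, centring on detected probes, the mean of a gene's probes and outlier spots kept. The deposited value table equals the processed signal, and every member was well above background on every array. Runs with that table or with other filters on dim probes therefore could not alter these medians. Normexp correction was run on the median spot signal, chosen after seeing the data because the files used hold no mean signal. Centring on the spike-ins turned the members' median for LPS with Ruvbl2 siRNA to 0.32, with 37 members above 0, 4 below, 10 higher by 0.5 and 2 by 2-fold. By that centring 82.4% of all genes were above 0. The same centring moved the members' median for the siRNA difference in DMSO to -0.36, with 0 above 0, 41 below and 6 lower by 0.5. There 13.1% of all genes were above 0. It moved the members' median for the change of the LPS difference to 0.42, with 0 below 0, 18 higher by 0.5 and 1 by 2-fold. Here 82.5% of all genes were above 0. The shift was thus one of all genes, and the share of all genes past 0.5 under it was not counted. The cause was not tested. For LPS with control siRNA the number of members lower by 0.5 was 6 with normexp, 4 with quantile normalization and 1 with the spike-ins. For the siRNA difference in LPS, 10 members were below 0 with normexp, and 1 was higher by 0.5 with the mean of probes. For the change of the LPS difference, normexp gave 2 members below 0, 6 higher by 0.5 and 1 by 2-fold. No paired analysis was possible because each group is 1 array and the labels give no replicate numbers. Every member was well above background, so dim signal does not limit these values, and the lack of replicates does.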
